A study of Mus musculus with 37 samples.

Results

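The genes described here handle fatty acids in macrophages from the fat of mice fed a high-fat diet: Lpl, Cd36, Fabp4, Fabp5, Plin2, Pnpla2, Dgat1, Acsl1 and Pparg. They were chosen by symbol, and all 9 were found among the 23947 genes of the deposited table. The samples were 37 single cells, each labelled an adipose tissue macrophage (ATM) and taken by sorting from collagenase-digested epididymal white fat. The donors were age-matched male mice of the strain C57BL/6J, fed a high-fat diet (D12492) in which 60% of the energy came from fat. The sources used here do not give their age. All cells shared this strain, sex, diet, depot and cell type label, so they formed 1 group with no contrasting condition. The labels tie no cell to an animal, so the group counted as 1 sample, and everything below describes these cells with no test between conditions. Nor do those sources state the sort gate.

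Macrophages in fat take up fatty acids released from lipoproteins or from dying adipocytes. Lipoprotein lipase (Lpl) cuts triglyceride outside the cell, CD36 brings fatty acids across the membrane, and the carriers FABP4 and FABP5 hold them in the cytosol. Acsl1 couples them to coenzyme A, Dgat1 makes triglyceride, perilipin 2 (Plin2) coats the resulting droplets and Pnpla2 (adipose triglyceride lipase) breaks them down again. PPAR gamma (Pparg) is a fatty acid-sensing nuclear receptor that drives several of these genes in adipocytes and macrophages.

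Promoter windows of the most widely detected members, Plin2 and Cd36, are shown because they hold the letters AGGTCA, the hexamer that nuclear receptors such as PPAR gamma bind. Both come from RefSeq on GRCm38.p6 and run from 250 bases before to 20 bases after the annotated start, 5′ to 3′ on the minus strand. Capitals mark that hexamer, in either orientation, and CACGTG, an E-box. The Plin2 window is chr4:86670040-86670309 and the Cd36 window is chr5:17835877-17836146.
Plin2: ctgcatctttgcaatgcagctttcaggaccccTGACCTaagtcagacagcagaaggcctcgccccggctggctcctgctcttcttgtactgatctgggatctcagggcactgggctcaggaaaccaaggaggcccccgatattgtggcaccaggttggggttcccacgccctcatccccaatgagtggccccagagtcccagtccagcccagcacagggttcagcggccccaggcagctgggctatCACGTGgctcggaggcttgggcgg
Cd36: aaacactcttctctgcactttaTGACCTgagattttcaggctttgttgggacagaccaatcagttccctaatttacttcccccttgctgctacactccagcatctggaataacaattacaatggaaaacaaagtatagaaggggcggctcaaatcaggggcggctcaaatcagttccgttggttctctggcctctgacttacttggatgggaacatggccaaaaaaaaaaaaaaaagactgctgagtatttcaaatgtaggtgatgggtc
The hexamer lay 228 bases before the Cd36 start and 218 before the Plin2 start, in reverse orientation in both, and the E-box began 4 bases before the Plin2 start. Searched on both strands over windows of 250 bases before to 50 after each start, AGGTCA was found in 16.3% and CACGTG in 7.15% of all 32851 windows. The hexamer was in 4 of the 8 windows of the members. Pparg supplied 3 of those 8 windows and Acsl1 2, and the hexamer was in windows of Plin2, Cd36 and Pparg only. The DR1 direct repeat, AGGTCA followed after 1 base of any kind by a further AGGTCA, and so overlapping the hexamer search, was in none of the 8 and in 0.0396% of all windows. Windows were matched for 5 members (Plin2, Cd36, Pparg, Pnpla2 and Acsl1), and not for Lpl, Fabp4, Fabp5 and Dgat1. A match describes letters in the window and was not linked to binding.

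Levels are in FPKM, which corrects fragments for the length of the transcript and the size of the library. Levels of different genes can thus be compared within a cell. Detection means a level of at least 1 FPKM in a cell, and a measured gene is one with detection in 5 or more cells. FPKM summed to between 225528 and 1841666 per cell, with 1224 to 3204 genes detected. An equal FPKM was therefore not an equal share of the total in different cells, and comparisons between cells carry this limit. Fragment counts are not in the table. The value of 1 fragment, estimated from the lowest values, spanned 94.1-fold, and in 6 cells (2, 7, 15, 17, 24 and 26) it was more than 4 times the median. These are called shallow below, a name for this estimate alone, since depth is unknown. They detected between 1669 (cell 15) and 3204 genes (cell 7), against a median of 1824 over all cells. Cells 2, 24 and 26 had the highest FPKM sums. Cells 7 and 27 held fibroblast genes (sums of 8 such genes of 7186 and 11407 FPKM, at most 604 FPKM elsewhere) and low sums of 11 macrophage genes (327 and 139 FPKM, median of all cells 15130 FPKM). The 11 macrophage genes were each detected in at least 19 cells. A value of exactly 0 need not mean that a gene was silent. Gapdh was listed at 0 in 2 cells and Hprt in 6, and the cause was not tested.

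Plin2, Cd36, Fabp4 and Lpl were present in most cells, whereas the other 5 members were found in fewer than 19. Plin2 was detected in 36 cells, Cd36 in 35, Fabp4 in 33 and Lpl in 29. Fabp5 was detected in 16 cells, Pnpla2 in 10, Dgat1 in 5, Acsl1 in 3 and Pparg in 2. Thus 4 of 9 members were detected in at least 19 cells, where 4.03% of all genes in the table and 20.6% of the 4694 measured genes were. Measured members numbered 7 of 9, against 19.6% of all genes. The median measured gene was detected in 10 cells. The members were named with earlier results known, and these shares are descriptions only.

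**Figure D1:**
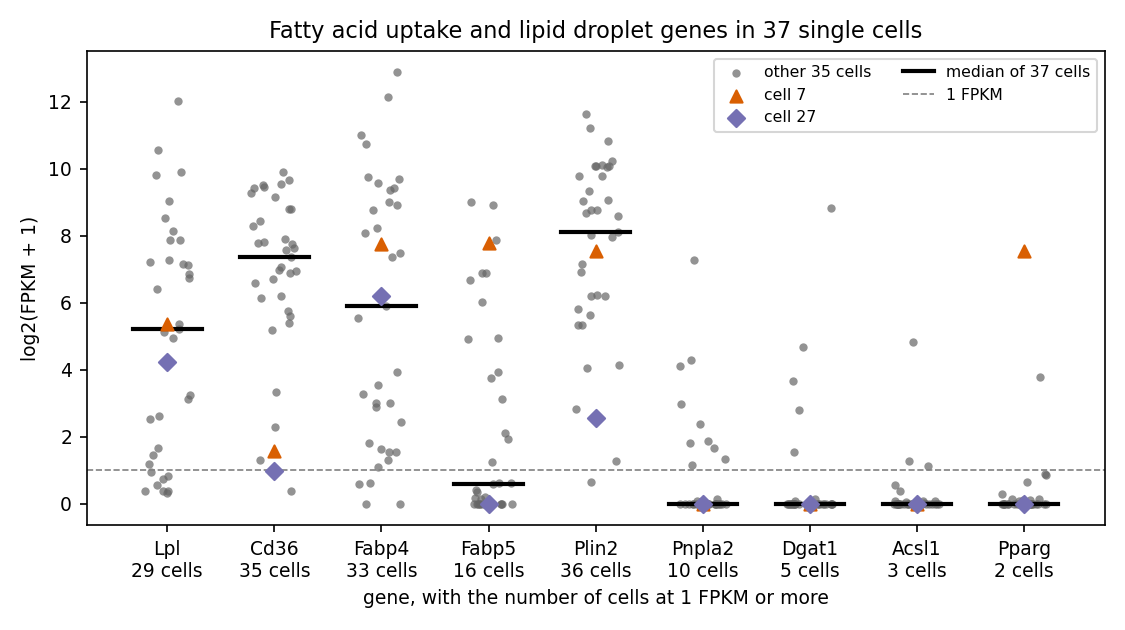
Level of the 9 genes in each of 37 cells, with log2(FPKM + 1) as the vertical axis. A triangle marks cell 7, a diamond cell 27 and grey points the 35 others, black bars are medians over all cells and the dashed line is 1 FPKM. Plin2, Cd36, Fabp4 and Lpl are spread over most of the range, and the highest Pparg value is that of cell 7.

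Lpl, the secreted lipase that opens the pathway, ranged from 0.243 to 4171 FPKM with a median of 36.4 FPKM. Its quartiles were 1.72 and 153 FPKM. Cell 26 (4171 FPKM), cell 4 (1499 FPKM) and cell 14 (947 FPKM) together held 64.4% of the summed Lpl value. No cell was listed at 0, and 8 cells lay below 1 FPKM. The detected share was 78.4% (exact 95% interval 61.8% to 90.2%, for the sampling of cells only). Cell 26 was shallow, while cells 4 and 14 were not.

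Cd36, the fatty acid translocase and scavenger receptor, had the smallest share of its sum in its 3 highest cells. It ranged from 0.293 to 954 FPKM, with a median of 163 FPKM and quartiles of 53.2 and 444 FPKM. Cells 16, 15 and 34 held 25.6% of the summed value. Only cells 23 and 27 lay below 1 FPKM, at 0.293 and 0.969 FPKM, and cell 7 stood at 2.00 FPKM. Cells 7 and 27 were therefore both among the 4 lowest for Cd36, beside cells 18 and 23.

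Fabp4, the adipocyte and macrophage carrier also known as aP2, reached the highest single value of the 9. Its lowest value was 0, in cells 2 and 18, its median 58.9 FPKM and its highest 7516 FPKM, in cell 9. Cell 35 followed at 4488 FPKM and cell 16 at 2049 FPKM. Of 33 cells at 1 FPKM or more, 20 also exceeded 3% of the gene's mean (18.1 FPKM). The same limit kept 31 of 36 cells for Plin2 and 32 of 35 for Cd36. Detection of Fabp4 in 13 cells was thus at low values.

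Fabp5, the epidermal-type carrier of the same family, was detected in 16 cells (43.2%, 27.1% to 60.5%) and listed at 0 in 13. Its median was 0.515 FPKM and its highest values were 515 FPKM in cell 11, 484 FPKM in cell 16 and 232 FPKM in cell 14. Cell 7, with fibroblast genes, came next at 220 FPKM. Within cells, all 16 with Fabp5 also had Fabp4 at 1 FPKM or more, against 14.3 from the product of the shares. Cell 9, the highest for Fabp4, was listed at 0 for Fabp5, whereas cell 11, the highest for Fabp5, had Fabp4 at 1.93 FPKM. The longest run of identical bases between transcripts of the pair was 12 in GENCODE M21.

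Plin2, the perilipin on the droplets of non-adipose cells, had the highest median of the 9, at 274 FPKM. Without the shallow cells this median was 431 FPKM. It ran from 0.564 FPKM in cell 18 to 3177 FPKM in cell 6, with quartiles of 54.7 and 880 FPKM. Its median lay above that of 97.6% of measured genes, against 96.9% for Cd36, 94.6% for Fabp4 and 93.2% for Lpl. In 13 cells Plin2 was the highest of the 9, more often than Fabp4 (9 cells), Cd36 (7), Lpl (5), Dgat1 (2) or Fabp5 (1).

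By median FPKM the order was Plin2, Cd36, Fabp4, Lpl and Fabp5, with the other 4 at 0. The places of Fabp4 and Lpl turned in 2 alternatives. With every cell scaled to an FPKM sum of 1000000, the medians were 119.6 for Lpl and 89.97 for Fabp4, and in cells 0 to 19 they were 37.0 and 36.7 FPKM. Neighbours at the top of this order were not separated beyond the spread between cells. Plin2 exceeded Cd36 in 24 of 37 cells, Cd36 exceeded Fabp4 in 20 and Fabp4 exceeded Lpl in 22. Their interquartile ranges overlapped. Lpl exceeded Fabp5 in 28 cells, with ranges that still overlapped (1.72 to 153 FPKM against 0 to 28.9 FPKM).

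Pnpla2, the lipase that starts droplet breakdown, was detected in 10 of 37 cells (exact 95% interval 13.8% to 44.1%). Cell 11 held 155 FPKM, and the next were cell 36 at 18.4 FPKM and cell 10 at 16.4 FPKM. All 10 cells also had Plin2 at 1 FPKM or more, against 9.73 from the product of the shares. None of the 6 shallow cells had Pnpla2 at 1 FPKM or more. Its rho with the value of 1 fragment was -0.33, and the part of depth in its absence was not tested.

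Dgat1, which completes triglyceride synthesis, was detected in 5 cells: 449 FPKM in cell 12, 24.8 FPKM in cell 33, 11.8 FPKM in cell 18, 5.97 FPKM in cell 36 and 1.94 FPKM in cell 11. The other 32 cells were at or below 0.111 FPKM, and 30 of all cells were listed at 0. Acsl1, the long-chain acyl-CoA synthetase, reached 27.4 FPKM in cell 31 and only 1.41 and 1.18 FPKM in cells 29 and 3. It was listed at 0 in 27 cells.

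Pparg was detected in cell 7 at 186 FPKM and in cell 30 at 12.8 FPKM, and was listed at 0 in 26 cells. Cell 7 thus held 92.3% of the summed Pparg value and was also a cell with fibroblast genes. In the 35 cells other than 7 and 27 Pparg was detected in 1, and the highest value fell from 186 to 12.8 FPKM. In cell 27 Pparg was listed at 0. Fabp4 in cells 7 and 27 was 217 and 73.3 FPKM, and Lpl was 40.5 and 17.7 FPKM, all within the range of the other cells.

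**Figure D2:**
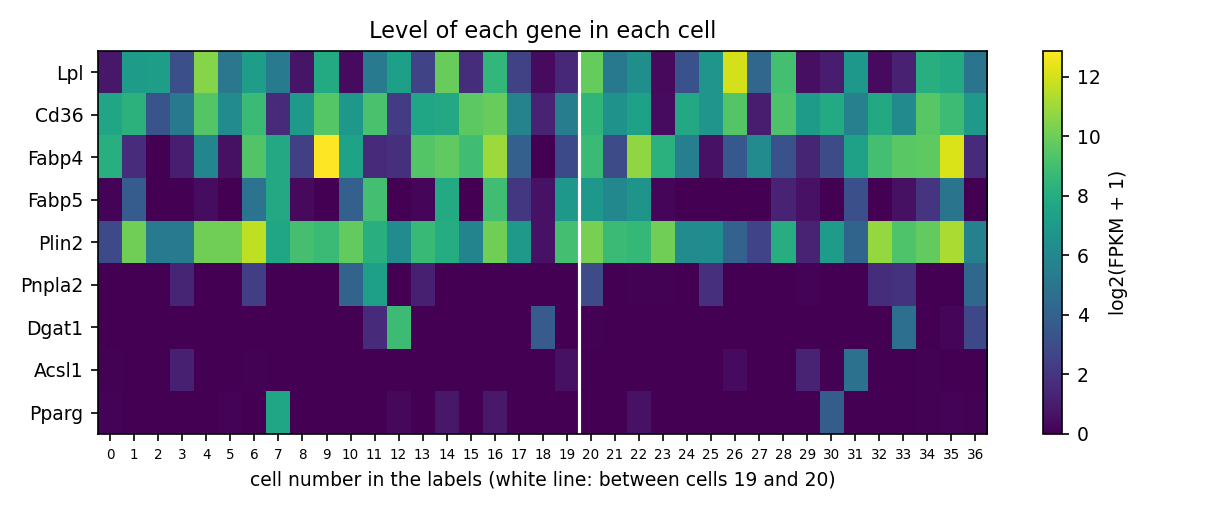
Level of each gene (rows) in each cell (columns, by cell number), coloured by log2(FPKM + 1). The white line lies between cells 19 and 20. Lpl, Cd36, Fabp4 and Plin2 are high together in 7 cells and the lower 4 rows are dark in most cells.

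Levels of the 9 genes differed widely between cells, and no comparison with the spread of other genes was made. The summed FPKM of the 9 genes ran from 14.7 in cell 18 to 8908 in cell 9, with a median of 1207. As a share of each cell's FPKM this was 0.00434% in cell 18, 0.302% at the median and 2.15% in cell 35. The number of members detected per cell ran from 2 to 7, with a median of 5, and cell 11 had the most. Lpl, Cd36, Fabp4 and Plin2 were all at 100 FPKM or more in 7 cells (6, 9, 14, 16, 20, 34 and 35), none of them shallow, and 3 cells (3, 18 and 27) had none of the 4 at that level. The level of 100 FPKM was chosen after the values were seen.

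Some pairs of the uptake, carrier and droplet genes were high in the same cells, to a modest degree, and others were not. Over the 37 cells, Spearman's rho, a rank correlation, was 0.48 for Lpl and Cd36, 0.45 for Cd36 and Fabp4 and 0.45 for Fabp4 and Plin2. It was 0.37 for Fabp5 and Plin2, 0.34 for Cd36 and Plin2, 0.32 for Fabp4 and Fabp5 and 0.31 for Pnpla2 and Dgat1. Pnpla2 and Dgat1 were listed at 0 in 24 and 30 cells and detected together in 3, against 1.35 from the product of the shares. In the parts described below this pair had 0.10 and 0.53. Its Pearson's r on log2 values was 0.15, or 0.005 without the 2 cells farthest from the Pnpla2 median. Lpl had lower values with Fabp5 (0.23), Fabp4 (0.22) and Plin2 (0.15, with 0.30 and 0.02 in the parts described below), as had Cd36 with Fabp5 (0.14). Of the 21 pairs of measured members, 7 reached 0.3 and 3 reached 0.4, where 5.97% and 1.54% of all pairs of measured genes did. The mean over these 21 pairs was 0.16, against 0.03 over all pairs of measured genes. Over the 36 pairs of all members, which include 2 genes that were not measured by this rule, it was 0.09. The cells share a sort and differ in depth, the widely detected members are far more abundant than the median measured gene, and no p-value is attached.

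**Figure D3:**
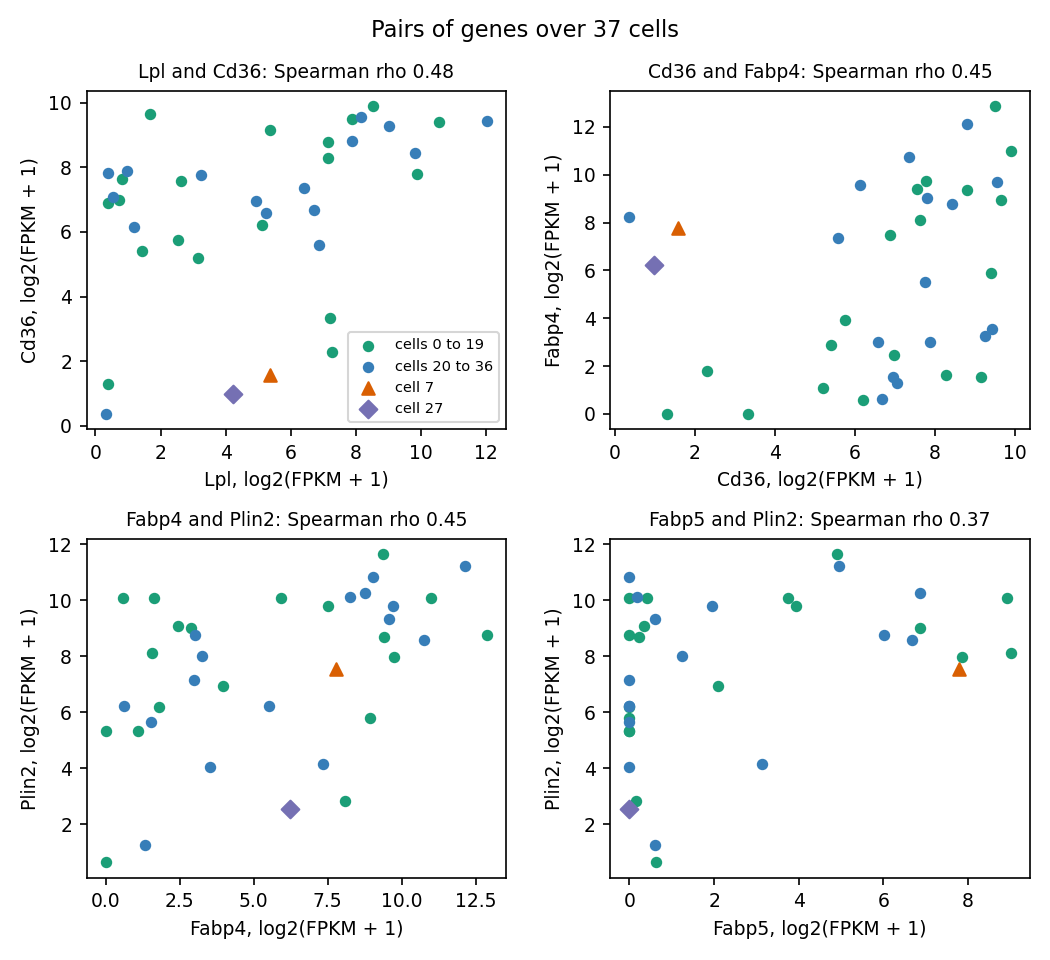
Each panel plots 1 pair of genes as log2(FPKM + 1) in 37 cells, coloured by cell number (0 to 19, 20 to 36), with cells 7 and 27 as a triangle and a diamond. Lpl and Cd36 have a rho of 0.48, with many cells high for Cd36 and low for Lpl.

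These relations differed in how evenly they held. The cells were also read in 2 parts by cell number, cells 0 to 19 and 20 to 36, a division not in the labels. Whether the parts were separate libraries or batches is not known. For Lpl and Cd36 rho was 0.37 and 0.56 in the parts, 0.51 without cells 7 and 27 and 0.59 without the shallow cells. Pearson's r on log2 values was 0.37, and 0.30 without the 2 cells farthest from the Lpl median. Cd36 and Fabp4 had 0.62 in the first part and 0.18 in the second, with r 0.31, or 0.45 without the 2 cells farthest from the Cd36 median. Fabp4 and Plin2 went the other way, at 0.24 and 0.66, with r 0.44 and 0.40. The difference between parts was not tested. With the number of genes detected removed, the 3 values were 0.51, 0.45 and 0.45.

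Overlap among the highest cells was largest for Lpl and Cd36, and beyond that pair did not follow the order of rho. Of the 9 cells highest for Lpl and the 9 highest for Cd36, 7 were shared, against 2.19 from the product of the shares. Lpl and Fabp4 shared 5, Cd36 and Fabp4 shared 4, and Fabp4 and Plin2 shared 3. Lpl and Plin2 had a rho of 0.15 and shared 4 of their 9 highest cells. The difference between the rho of Lpl with Cd36 and with Plin2 was not tested.

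Markers of macrophage states were read next, and Lpl was high in many of the cells high for the lipid-associated list, which here leaves out the members themselves. The rank correlation with Lpl was 0.57 for Trem2 (a lipid-sensing receptor), 0.55 for Lgals3 (galectin 3), 0.53 for Cd9 (a tetraspanin), 0.48 for Gpnmb and 0.47 for Cd63. The proteases Ctsd and Ctsb had 0.38 and 0.36, and Spp1, detected in 6 cells, had 0.00. Of 8 such genes, 5 were at 0.4 or more with Lpl, against 1.54% of all pairs of measured genes. For Trem2 the part values were 0.66 and 0.47, and for Lgals3 0.60 and 0.38. Without the shallow cells these rose to 0.70 and 0.76. The relation of Lpl to Cd9 was known from earlier results of these data and is not independent support.

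The other widely or moderately detected members are given beside it, and differences between members were not tested. Cd36 had 0.51 with Ctsb, 0.48 with Lgals3 and 0.30 with Trem2, which became 0.54, 0.65 and 0.55 without the shallow cells. Fabp5 had 0.52 with Trem2 (0.34 and 0.77 in the parts), 0.39 with Cd9 and 0.27 with Ctsb, and 0.68, 0.46 and 0.44 without the shallow cells. Fabp4 had at most 0.30, with Cd9, and Plin2 at most 0.32, with Trem2. Their lowest values were with Spp1, at -0.27 for Fabp4 and -0.31 for Plin2. Below 0 were 3 of the 8 genes for Fabp4 and 2 for Plin2. The median over the 8 genes was 0.48 for Lpl, 0.25 for Cd36, 0.21 for Fabp5, 0.17 for Plin2 and 0.14 for Fabp4.

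Resident macrophage markers were mixed for Lpl. The rank correlation was -0.39 for Cd163, -0.35 for Sepp1 (selenoprotein P) and -0.28 for Mrc1 (the mannose receptor CD206). It was near 0 for Pf4 (-0.07) and Clec10a (-0.04) and positive for Folr2 (0.20). For Plin2 the 6 resident genes lay between -0.16 and 0.18. Over 11 general macrophage genes the medians were -0.01 for Lpl, 0.15 for Cd36, -0.04 for Fabp4, -0.02 for Fabp5 and 0.06 for Plin2. Cd36 had 0.40 with Cd68 and 0.32 with C1qc, 8 of 11 values above 0, and 0.32 with the summed level of the list. Without cells 7 and 27, which were low for these genes, Cd36 had 0.37 with Cd68, 0.23 with C1qc and 0.15 with C1qb. The rest were then 0.06 for Lyz2, 0.05 for Tyrobp, 0.02 for Fcer1g, -0.05 for Csf1r and -0.06 for C1qa. Cd14, Emr1 and Ptprc had -0.14, -0.20 and -0.26.

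**Figure D4:**
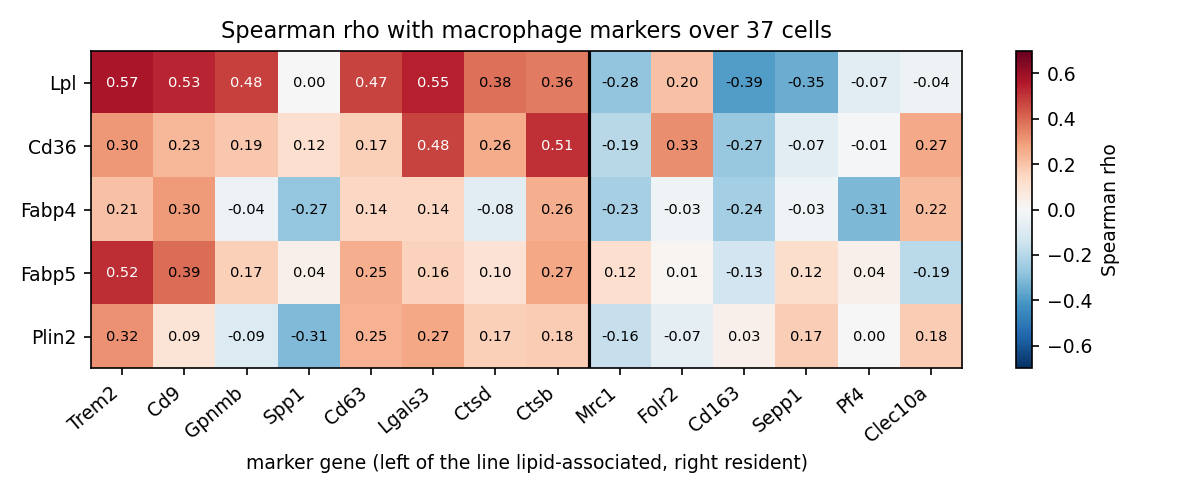
Spearman's rho over 37 cells between 5 of the genes (rows) and measured markers of lipid-associated (left of the line) and resident (right) macrophages, with the value in each square. The Lpl row runs on the left from 0.00 for Spp1 to 0.57 for Trem2, and on the right from -0.39 for Cd163 to 0.20 for Folr2.

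Several members are also genes of adipocytes and capillary endothelium, so defining markers of these cells were read in the same table. Of 10 adipocyte markers, 7 were listed at 0 in every cell: Adipoq, Lep, Cfd, Retn, Plin1, Slc2a4 and Pck1. This count and those of the lists below stand beside 51.6% of all genes of the table, and no absence of a cell type was tested. The other 3 were Lipe in 3 cells, Cidec in 1 and Car3 in 1, and the list's summed level ran from 0 to 299 FPKM, the highest in cell 20. The sum reached 1 FPKM in only 3 cells. Of 8 endothelial markers, 6 were listed at 0 throughout (Kdr, Gpihbp1, Tie1, Emcn, Egfl7 and Cldn5), and the sum never exceeded 5.30 FPKM. Dendritic cell markers were listed at 0 for 4 of 6 genes, and Cd209a was detected in 4 cells. Only cells 7 and 27 held at least 3 of the 8 fibroblast genes.

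Few genes had a pattern like that of a member. At a rho of 0.5 or more, 0.32% of measured genes followed Lpl (15 genes), 0.17% Cd36 (8), 0.17% Fabp4 (8), 0.447% Fabp5 (21) and 0.149% Plin2 (7). For the sparse members this share was 0.17% for Pnpla2, 0.298% for Dgat1, 0.0426% for Acsl1 and 0.128% for Pparg. Over all pairs of measured genes it was 0.269%, and 6 of the 9 members lay below that background. At a rho of -0.5 or less the shares were 0.0426% for Lpl, 0.128% for Cd36, 0.17% for Fabp4, 0.0213% for Fabp5 and 0.0426% for Plin2. They were 0.0213% for Pnpla2, 0% for Dgat1, 0.128% for Acsl1 and 0.0213% for Pparg. The share over all pairs of measured genes was not computed at -0.5 or less, so these are values only. The named genes that follow are those highest and lowest in such a ranking and carry no further weight.

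Lpl was most like Anxa1 (annexin A1, a phospholipid-binding protein), at 0.63, and then Arpc2 (an actin nucleator subunit) and Cdk14, both at 0.59. It ran against Crem at -0.55 and Lcp2 at -0.52. Anxa1 kept 0.56 and 0.65 in the parts. Cd36 was most like Gpx1 (glutathione peroxidase), Anpep (aminopeptidase N) and Gnai3, at 0.56, 0.55 and 0.53. Its lowest values were -0.60 for Pld4 and -0.52 for Psme1, a proteasome activator subunit. Gpx1 had 0.69 in the first part and 0.27 in the second, while Pld4 had -0.62 and -0.59.

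Fabp4 was most like Ythdf2 (a reader of methylated RNA) and Ric8, both at 0.57, and Commd4 at 0.55. The lowest were Pid1 at -0.60 and Parvb at -0.57. Fabp5 was most like Spcs1 (a signal peptidase subunit) at 0.67, Cdc5l at 0.63 and the respiratory chain gene Cox5b at 0.62, with Stap1 at -0.51 and Gnas at -0.47 lowest. Its rho with the number of genes detected was 0.35, the highest of the 9. With the number of genes detected removed, the 21 genes at a rho of 0.5 or more with Fabp5 became 13. Plin2 was most like Arid1b (a chromatin remodelling subunit) at 0.60, Psmc3 (a proteasome subunit) at 0.59 and Tor2a at 0.55. Its lowest were Egr1 and Fosb, immediate early transcription factors, both at -0.51. In the parts Egr1 had -0.38 and -0.68 and Fosb -0.42 and -0.60.

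Of 65 further genes of fatty acid handling, 8 were detected in at least 19 cells, where 4.03% of all genes were, and 27 were measured, where 19.6% of all genes were. The others were found in 1 to 4 cells (26 genes) or in none (12). Their median was 3 cells. In uptake, Lipa (lysosomal acid lipase) had a median of 32.6 FPKM and was found in 32 cells, and Lrp1 (a lipoprotein remnant receptor) in 21. Dbi, the acyl-CoA binding protein, had a median of 391 FPKM over all cells and was found in 31, above that of Plin2, and the transporter gene Slc27a1 in 21. Plin3, a perilipin of nascent droplets, was found in 22 cells at 5.73 FPKM, and Cpt1a, the gate of mitochondrial fatty acid oxidation, in 19 at 1.41 FPKM. The regulators Cebpb and Klf4 were found in 35 and 23 cells, at 93.1 and 2.61 FPKM.

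By role, 2 of 7 glyceride synthesis genes, 1 of 5 lipolysis genes and none of 5 fatty acid synthesis and desaturation genes were measured, beside 19.6% of all genes. None of these reached 19 cells, as few genes of the table did (4.03%), and nothing particular to them is read from these counts. Of 9 oxidation genes 7 were measured, with a median of 13 cells, against 5 of 8 uptake genes (9.5 cells) and 3 of 10 droplet coat and assembly genes (0.5 cells). Of the synthetases, Acsl4 was detected in 17 cells and Acsl5 in 6, more than the 3 of Acsl1. Hilpda, an inhibitor of Pnpla2, was found in 12 cells and Lipe in 3. Gpihbp1, Fabp3, Dgat2, Plin1, Cidea, Cideb and Ppargc1a were listed at 0 in all cells. Of all genes deposited, 51.6% were listed at 0 throughout.

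Among the 27 measured genes of this pathway list, Lipa had the highest values with Lpl and Cd36. Its rho was 0.48 with Lpl (0.38 and 0.57 in the parts) and 0.43 with Cd36 (0.49 and 0.39). Lipa was the only one of 27 at 0.4 or more with either, and for Fabp4, Fabp5 and Plin2 there was none. Of all pairs of measured genes 1.54% reached 0.4, and these counts lie near that share. Acsl4 came next for Lpl, just below 0.4. Median rho over the 27 genes was 0.08 for Lpl, 0.05 for Cd36 and 0.09 for Plin2. Lpin1, a phosphatidate phosphatase of glyceride synthesis, was the gene most like Pnpla2 of all measured genes, at 0.59 (0.59 and 0.54 in the parts), although it was detected in only 6 cells.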

How the data were processed

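Single-cell RNA of 37 cells was captured on a Fluidigm C1 instrument and made into Nextera XT libraries, per the labels' protocols. The deposited table holds FPKM made by the authors. Alignment used STAR on the build mm9 and the values came from Cuffnorm, per the submitters' processing notes. The sources used here give no tool versions, annotation or settings. Values depend on transcript length models and carry no fragment counts, so no count test was used and depth is unknown. What 1 fragment was worth in each cell was estimated from the modal ratio of low values (0.005 to 1 FPKM) for 666 pairs of cells, with 532 pairs kept. Levels were transformed to log2(FPKM + 1). Shares of cells have 95% Clopper-Pearson intervals (exact), for counting error alone. Spearman's rho was computed with Python 3.11.15, numpy 2.4.6 and scipy 1.17.1, and tested on simulated data with planted relations.

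The members and lists were chosen with earlier results of these data known. The rule for named genes took all 9 members, the 3 measured genes with the highest and the 2 with the lowest rho for each, and pathway genes detected in at least 19 cells or listed at 0 in every cell. Of the macrophage list, Adgre1 is in the table under its older symbol Emr1. Promoters came from RefSeq on GRCm38.p6, a different build from the files, and were matched by symbol. Alternatives were detection thresholds, cells left out, the 2 parts by cell number and scaling every cell to an FPKM sum of 1000000. Others were Pearson's r, pseudocount 0.1, removal of the number of genes detected, and other filters.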

Additional observations from a re-analysis of the deposited data

How the results depend on the processing

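The number of members detected in most cells stayed at 4 or 5 under the 9 alternatives tried, being 5 with scaling of every cell to an FPKM sum of 1000000, at 0.1 FPKM and above 0. The 8 pathway genes became 13 at 0.1 FPKM, 4 at 5 FPKM and 19 at any value above 0, which follows from the threshold. The mean pairwise value of the members was 0.0531 with Pearson's r and 0.0564 with Pearson's r at pseudocount 0.1, against 0.0903 for rho, and the cause was not tested. Pairs of a gene and a member at a rho of 0.5 or more numbered 89. They were 178 without the shallow cells, 564 in cells 0 to 19 and 505 in cells 20 to 36, with fewer cells in each case. They were 297 with Pearson's r and 148 with pseudocount 0.1, for which the cause was not tested. With genes detected in at least 1 or at least 10 cells they were 161 and 48, and with a rho of 0.4 or 0.6 they were 543 and 7, as the filter and threshold set them. Counts of such genes for single members moved by over 1.5 times in 74 cases and by less in 34. For Fabp5 the count was 13 with the number of genes detected removed, against 21. The median of Plin2 was 431 FPKM without the shallow cells, against 274 FPKM. With that scaling the Cd36 median was 496, against 163, and the Plin2 median was 690. The median FPKM sum of a cell was 326230, so scaling to 1000000 raises levels in most cells by unit alone, and with them detection at 1 FPKM. No pair of members with a rho of 0.4 or more changed sign. No paired analysis was possible because all cells form 1 group and no animal is named. Unknown depth limits what a value of 0 shows.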

Other observations

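The genes most like the sparse members are given as values only, since few cells carry them. Pnpla2, detected in 10 cells, was followed after Lpin1 by Tsg101 (an ESCRT subunit) and Man2a2, both at 0.54, and was lowest with Tmem88 at -0.56 and Hmgn1 at -0.49. Dgat1, detected in 5 cells, was nearest to Elmo1 (an engulfment adaptor) at 0.62, Gpatch1 at 0.61 and Bcl2a1d at 0.57, with Adrbk1 and Kitl at -0.49. Acsl1, detected in 3 cells, was nearest to March7 at 0.59, Prune2 at 0.54 and Gatm at 0.49, with Ank at -0.58 and Atp5j at -0.57. Pparg, detected in 2 cells, was nearest to Rnf19b at 0.57, Ifi35 at 0.55 and Azin1 at 0.52, with Prcp at -0.50 and Ms4a6b at -0.49. For Acsl1 and Pparg these ranks rest mostly on values below 1 FPKM. The share of measured genes at 0.5 or more was 0.17% for Pnpla2, 0.298% for Dgat1, 0.0426% for Acsl1 and 0.128% for Pparg, beside 0.269% over all pairs.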
